A study of Danio rerio with 6 samples.

Results

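Transcripts of pyrimidine synthesis and uridine salvage were examined in zebrafish embryos kept in leflunomide, a drug whose active form inhibits dihydroorotate dehydrogenase. The genes were chosen by name, as the probe sets that the platform annotation assigns to cad, dhodh, umps, uck1, uck2a, uck2b, uckl1a, uckl1b, ctps1a or slc29a1a. Of these 10 genes, 8 were represented, by 9 of the 15617 probe sets on the array, and uck1 and slc29a1a had no probe set under these names. Whole embryos of the Tu strain had been kept in leflunomide at 6.5 uM (3 arrays), or in the solvent DMSO (3 arrays), starting at 50% epiboly in gastrulation and ending 24 hours after fertilization. Both groups share the strain, the stage and the exposure window. Neither group carries a mutation or transgene by the labels. The labels speak of an embryo in one field and of embryos in another and name no clutch, so a p-value here reflects the scatter among these arrays alone, and that scatter may be technical.

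Cells obtain pyrimidine nucleotides by de novo synthesis and by salvage. In de novo synthesis the multifunctional CAD protein performs the opening steps, DHODH in the inner mitochondrial membrane oxidises dihydroorotate to orotate and passes the electrons to ubiquinone, and UMPS converts orotate to UMP. In salvage, nucleoside carriers take up uridine and cytidine, and uridine-cytidine kinases phosphorylate them to UMP and CMP, so that DHODH is bypassed. These roles are known mainly from mammalian enzymes.

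After leflunomide, transcripts of the de novo enzymes cad and dhodh rose moderately, and those of the salvage kinases uck2b, uck2a and uckl1b fell, uck2b by 6.34-fold. The last de novo enzyme, umps, and the CTP synthase gene ctps1a had values of 0.40 and 0.30 on the log2 scale that did not pass the test. The remaining kinase gene, uckl1a, lay at too low a level to be tested and had a difference of 0.06. Of the 9 probe sets, 3 were thus called higher (both of cad and that of dhodh), 3 lower, 2 were not called and 1 was not tested. Among those called lower, uck2a passed the level filter only through its DMSO arrays. Calls used limma with Benjamini-Hochberg adjustment over 13107 probe sets at an adjusted p under 0.05, and 20.3% of all tested probe sets were called, 9.6% higher and 10.7% lower. The median log2 difference of all tested probe sets was 0.04.

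The values are centred log2 values, so that the median of the 6 arrays is 0 for each probe set. Values therefore compare arrays for 1 probe set, and the level of a gene cannot be set against that of another. Differences are leflunomide minus DMSO. A coarse level of each median was read from the rounding of the values, which separates log2 levels of 2 to 4, 4 to 8 and 8 to 16. Probe sets with a median read as under 4 were not tested.

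The cad gene had 2 probe sets, called A and B here in the order of their IDs, both with a median level of 8 to 16. At probe set A, cad had 0.30, 0.67 and 0.18 on leflunomide arrays 1 to 3, against -0.46, -0.60 and -0.18 on DMSO arrays 1 to 3. All leflunomide arrays lay above all DMSO arrays, and leflunomide array 2 was the highest. The difference was 0.79 (SE 0.16, 95% confidence interval 0.41 to 1.18, 1.73-fold higher, limma adjusted p = 0.0159, n = 3 and 3). At probe set B, cad had 0.29, 0.70 and 0.19 on the leflunomide arrays, against -0.29, -0.19 and -0.60 on the DMSO arrays, a difference of 0.75 (SE 0.17, limma adjusted p = 0.0215). Both probe sets of cad thus gave nearly the same size and the same order among the leflunomide arrays, while the order of the DMSO arrays differed between them. Omitting DMSO array 1 or 2 ended the call of probe set A (limma adjusted p = 0.0609 and 0.062). Omitting leflunomide array 2, DMSO array 1 or DMSO array 3 ended that of probe set B (limma adjusted p = 0.0514, 0.0623 and 0.0782).

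The transcript of dhodh, which encodes the enzyme that the drug inhibits, was measured by 1 probe set with a median level of 4 to 8. It had 0.14, 0.42 and 0.32 on the leflunomide arrays, against -0.43, -0.14 and -0.28 on the DMSO arrays. The groups did not overlap, with 0.28 between the lowest leflunomide array and the highest DMSO array. The difference was 0.58 (SE 0.12, 95% confidence interval 0.29 to 0.86), which is 1.49-fold higher (1.23 to 1.82), with limma adjusted p = 0.0171. The dhodh difference lay between 0.50 and 0.65 whichever array was left out. Omitting leflunomide array 2, DMSO array 1 or DMSO array 3 ended the call (limma adjusted p = 0.0557, 0.0688 and 0.0617).

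umps, whose product completes UMP, had 0.08, 0.50 and 0.12 on the leflunomide arrays, against -0.17, -0.08 and -0.23 on the DMSO arrays. The groups did not overlap, but array 2 stood well above the other leflunomide arrays, and the SD was 0.23 in leflunomide and 0.08 in DMSO. The difference of 0.40 (SE 0.14, 95% confidence interval 0.08 to 0.71) did not pass the test over all probe sets (limma adjusted p = 0.0789), nor under any alternative run for it. ctps1a encodes a CTP synthase, which aminates UTP to CTP and so serves pyrimidines of either origin. It had -0.07, 0.38 and 0.42 on the leflunomide arrays, against -0.10, 0.07 and -0.16 on the DMSO arrays. Leflunomide array 1 lay among the DMSO arrays, and the difference of 0.30 (95% confidence interval -0.05 to 0.66) was not called (limma adjusted p = 0.208). Without leflunomide array 1 the ctps1a difference was 0.46 and passed (limma adjusted p = 0.0359).

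**Figure D1:**
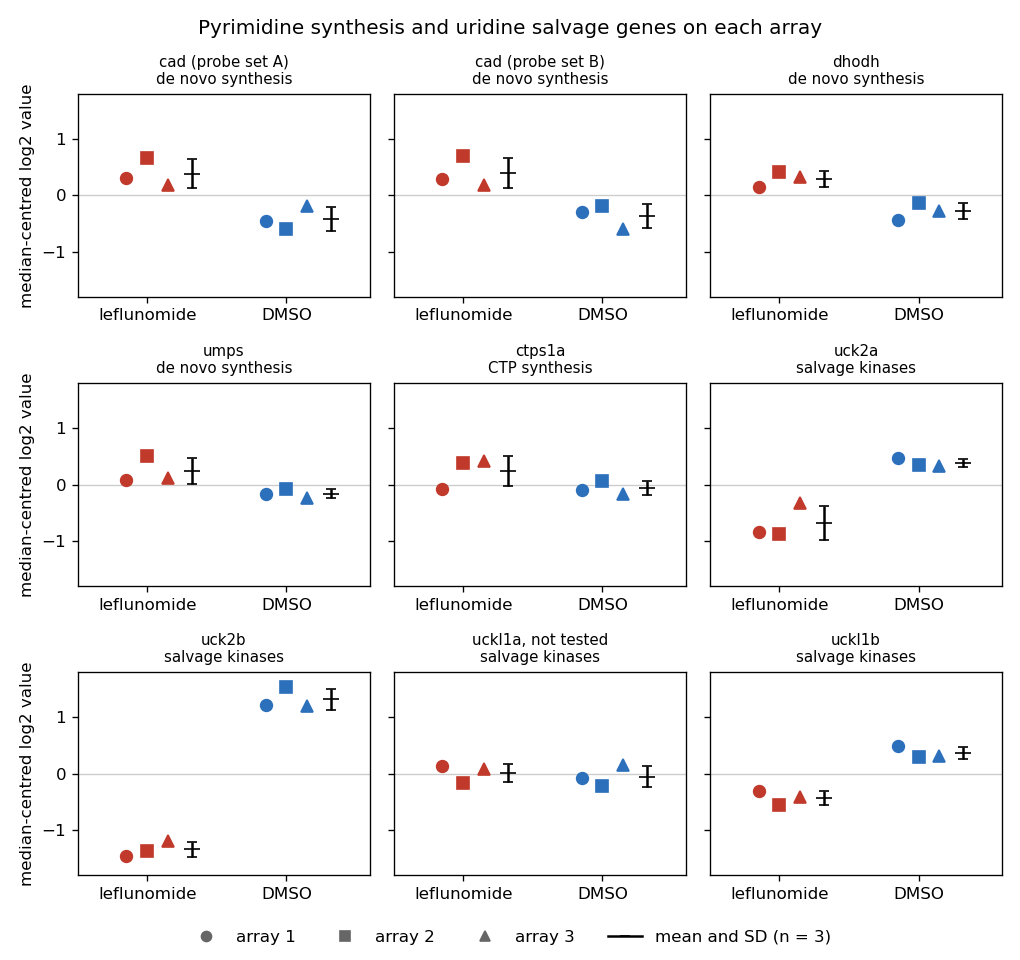
Median-centred log2 values (vertical axis) of the 9 probe sets of pyrimidine synthesis and uridine salvage genes on each leflunomide array (red) and each DMSO array (blue), with the mean and SD of 3 arrays in black. The groups lie apart in 7 panels, with leflunomide higher in cad, dhodh and umps and lower in uck2a, uck2b and uckl1b, and overlap for ctps1a and uckl1a; the separation is widest for uck2b.

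Among the salvage kinases the largest difference was that of uck2b, which encodes a uridine-cytidine kinase of the UCK2 type. It had -1.46, -1.37 and -1.20 on the leflunomide arrays, against 1.22, 1.54 and 1.20 on the DMSO arrays. The gap of 2.40 between the groups was many times the SD within them, which was 0.13 in leflunomide and 0.19 in DMSO. uck2b fell by 2.66 (SE 0.13, 95% confidence interval -2.97 to -2.36), or 6.34-fold (5.13 to 7.84), with limma adjusted p = 7.31e-05. Counted from the lowest, this difference ranked 40 among the 13107 tested probe sets. Against the DMSO mean, the changes of the single leflunomide arrays were -2.78, -2.70 and -2.52. Array 1 was therefore not the weakest here, although over all called probe sets the median absolute change was 0.55 on leflunomide array 1, against 0.76 and 0.72 on arrays 2 and 3. uck2b stayed called whichever array was left out, with limma adjusted p between 0.000107 and 0.00123. Its median level was placed at 4 to 8 by its DMSO arrays, which alone lay above the median. In that band its lowest leflunomide array lay at 2.54 or higher. No array of uck2b was read as under 4, although a reading from the rounding can miss such an array. uck2b stayed called when probe sets with any array under 4 were dropped, a filter chosen after seeing the data (limma adjusted p = 7.59e-05). In whole embryos, fewer cells of a type and less RNA per cell cannot be told apart.

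Its paralog uck2a had -0.84, -0.87 and -0.33 on the leflunomide arrays, against 0.47, 0.35 and 0.33 on the DMSO arrays. The DMSO arrays agreed closely, and leflunomide array 3 lay between the other leflunomide arrays and the DMSO arrays without reaching any DMSO array. uck2a fell by 1.06 (SE 0.16, 95% confidence interval -1.43 to -0.69), or 2.08-fold, with limma adjusted p = 0.00499. It stayed called without any single array, at a limma adjusted p of at most 0.028. However, its leflunomide arrays lay at or under level 4, so uck2a passed the level filter only through its DMSO arrays. In the fit without the level filter, its limma adjusted p was 0.00545. The band of its median was placed by the DMSO arrays and may be 1 band too high. With a median of at least 4, the rounding places it between 4 and 4.33. The leflunomide arrays then lie between 3.13 and 4 and the DMSO arrays between 4.33 and 4.79. With a median under 4, the lower limits would be lower. uck2a thus lay close to the 2 to 4 band, the lowest found on these arrays, and was left out when probe sets with any array under 4 were dropped.

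On the same array, the centred value of uck2b minus that of uck2a was -0.62, -0.51 and -0.87 in leflunomide, against 0.75, 1.20 and 0.87 in DMSO. These differences do not overlap between the groups, but an exact permutation test of 3 arrays against 3 cannot give a two-sided p below 0.10, and none is given. With a median of at least 4, the DMSO arrays of uck2a lay at 4.79 or lower and its leflunomide arrays between 3.13 and 4. The lowest band of levels on these arrays began at 2. Whether the low level of uck2a limited its difference was not tested, and no claim is made that uck2b transcripts fell more. Probe sets of close paralogs can bind each other's transcripts, and the size of such binding was not tested.

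The UCK-like genes encode relatives of the uridine-cytidine kinases. uckl1b had -0.30, -0.55 and -0.42 on the leflunomide arrays, against 0.50, 0.30 and 0.32 on the DMSO arrays. The groups were separated by 0.59, several times the SD of 0.13 in leflunomide and 0.11 in DMSO. uckl1b fell by 0.79 (SE 0.11, 95% confidence interval -1.05 to -0.53), or 1.73-fold, with limma adjusted p = 0.00417, and kept its call without any single array (limma adjusted p at most 0.0232). uckl1a, with a median level of 2 to 4, had 0.14, -0.17 and 0.08 on the leflunomide arrays, against -0.08, -0.22 and 0.15 on the DMSO arrays. The groups of uckl1a overlapped throughout. In a fit without the level filter, its difference was 0.06 (95% confidence interval -0.25 to 0.37, limma adjusted p = 0.809). At this lowest band of levels the interval does not exclude a change of the transcript that the probe set could not register.

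**Figure D2:**
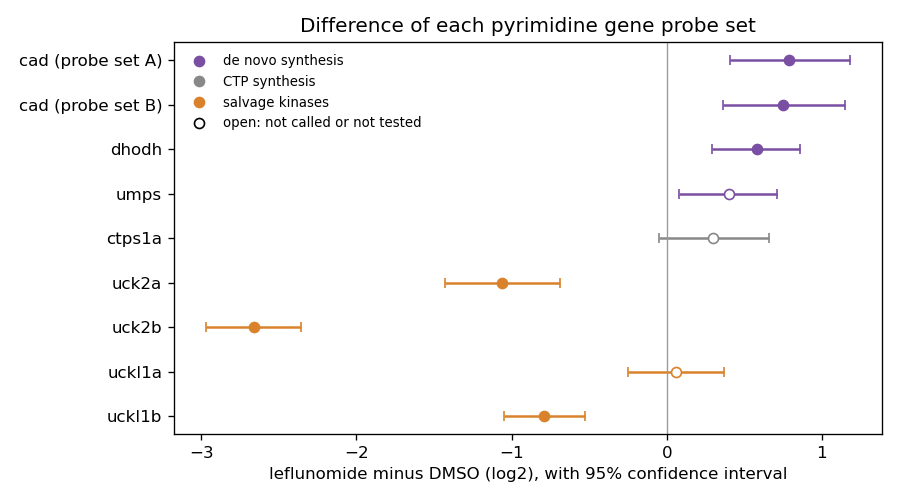
Leflunomide minus DMSO difference on the log2 scale (horizontal axis) of each of the 9 probe sets, with its 95% confidence interval from limma; filled points passed the test, open points did not or were not tested. The de novo probe sets lie between 0.40 and 0.79, and the called salvage kinases between -2.66 and -0.79.

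De novo and salvage transcripts were set against each other within each array. The mean centred value of cad, dhodh and umps, with the probe sets of cad averaged, was 0.17, 0.54 and 0.21 on the leflunomide arrays, against -0.33, -0.20 and -0.30 on the DMSO arrays. The mean of uck2a, uck2b and uckl1b was -0.86, -0.93 and -0.65 on the leflunomide arrays, against 0.73, 0.73 and 0.62 on the DMSO arrays. De novo minus salvage was therefore 1.03, 1.47 and 0.85 in leflunomide, against -1.05, -0.93 and -0.92 in DMSO, a shift of 2.09. The shift was 1.51 without uck2b, where uck2a and uckl1b stand for the kinases, and 1.69 with uckl1a added. No mean without uck2a was taken. These means describe genes that were chosen with earlier results of the data known, and no test of them is given. The kinase means include uck2a, which passed the level filter only through its DMSO arrays. The 4 de novo probe sets had a median difference of 0.67.

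For 7 of the 9 probe sets the leflunomide and DMSO arrays did not overlap, 4 higher and 3 lower. This held for 40.4% of all tested probe sets, 22.1% higher and 18.3% lower. The calls of uck2b and uckl1b held without any single array. That of uck2a did too, but uck2a passed the level filter only through its DMSO arrays. Each of the cad and dhodh calls ended in 2 or 3 of the 6 fits without 1 array. Over all tested probe sets the higher calls also dropped, from 1258 to 547, 531 and 426 without DMSO array 1, 2 and 3. Without leflunomide array 1, 2 and 3 they were 1400, 645 and 1066. With all arrays the limma adjusted p of the called de novo probe sets lay between 0.0159 and 0.0215. That of the called kinases lay between 7.31e-05 and 0.00499, the largest being that of uck2a.

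**Figure D3:**
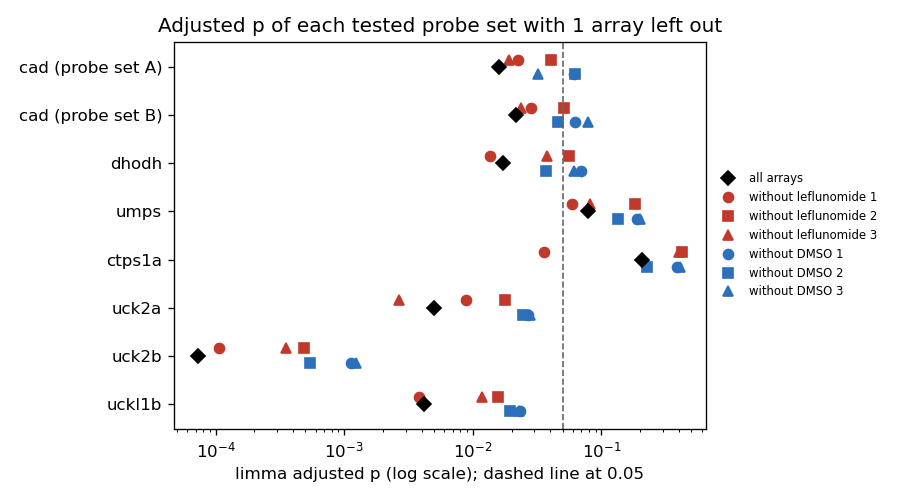
Limma adjusted p (horizontal axis, log scale) of the 8 tested probe sets with all arrays (black diamonds) and with each leflunomide array (red) or DMSO array (blue) left out, and the threshold of 0.05 as a dashed line. All points of uck2a, uck2b and uckl1b lie left of the line, while those of cad and dhodh fall on both sides of it and the highest value of dhodh is 0.0688.

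The nearest patterns to uck2b and dhodh among other named genes were found by the Euclidean distance between centred log2 values over the 6 arrays, which takes account of both shape and size. For uck2b they were sox11b, a transcription factor gene of the SoxC group (distance 0.234), slc2a15b, a sugar carrier family gene (distance 0.429), and pvalb3, a parvalbumin gene (distance 0.523). sox11b fell by 2.52 and had -1.43, -1.28 and -1.13 on the leflunomide arrays, against 1.13, 1.36 and 1.21 on the DMSO arrays. For dhodh they were cetn4, a centrin gene (distance 0.0659), matr3l1.2 (distance 0.0802) and wipi1, a gene of autophagy (distance 0.11). cetn4 had 0.12, 0.44 and 0.27 on the leflunomide arrays, against -0.41, -0.12 and -0.29 on the DMSO arrays. Distances scale with the range of the values, which is smaller for dhodh than for uck2b.

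Other genes of the pathway were taken from lists arranged by role, with 1 probe set for each gene. Of 93 listed genes, 46 had a probe set of their own and 45 were tested. After leflunomide 3 of the 45 rose, 6 fell and 36 were not called. Among all 8003 tested genes 21.4% were called, 10.4% higher and 11.1% lower, so the shares of the listed genes are near those of genes in general. Their median difference was 0.01, and that of all tested genes was 0.04.

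Nucleotide kinases raise UMP and CMP to the triphosphates. Of 8 tested, 1 fell and 0 rose in limma, with 2 lower and 2 higher at an unadjusted p under 0.05. The gene that fell, nme2b.2, encodes a nucleoside diphosphate kinase. It had -0.37, -0.86 and -1.66 on the leflunomide arrays, against 0.68, 0.54 and 0.37 on the DMSO arrays (log2 difference -1.49, SE 0.29, limma adjusted p = 0.013). The leflunomide arrays of nme2b.2 were spread widely, and its call was lost without DMSO array 1 or DMSO array 3. Its relatives nme2a and nme2b.1 had differences of 0.83 and -0.60 and were not called (limma adjusted p = 0.0516 and 0.0596), although the groups of each did not overlap. cmpk, the UMP-CMP kinase gene that acts on the products of both branches, had a difference of -0.08 (limma adjusted p = 0.634).

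Of the genes that turn pyrimidine ribonucleotides into DNA precursors, 9 of 15 listed were tested, and 1 fell and 0 rose in limma, with 2 lower and 1 higher at an unadjusted p under 0.05. rrm1, the large subunit of ribonucleotide reductase, had -0.16, -0.22 and -0.14 on the leflunomide arrays, against 0.14, 0.24 and 0.21 on the DMSO arrays. The difference of -0.37 (SE 0.09, limma adjusted p = 0.0298) was small, and omitting any single array except leflunomide array 3 ended the call. tyms, the thymidylate synthase gene, had a difference of -0.32 (limma adjusted p = 0.086). rrm2b, a small subunit of the reductase, had 0.88, 0.01 and 0.00 on the leflunomide arrays, against 0.00, -0.99 and -1.19 on the DMSO arrays, and its difference of 1.02 was not called (limma adjusted p = 0.0783). cmpk, tyms, rrm2b and the nme2 relatives are named after their values were seen.

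In the breakdown list, 2 of 7 tested genes rose, 1 fell and 4 were not called. upb1, which encodes beta-ureidopropionase of the closing step of pyrimidine breakdown, had 0.15, 0.69 and 0.32 on the leflunomide arrays, against -0.68, -0.15 and -0.42 on the DMSO arrays (log2 difference 0.81, SE 0.18, limma adjusted p = 0.0216). Omitting leflunomide array 2, DMSO array 1 or DMSO array 3 ended the call of upb1. nt5c2a, a cytosolic nucleotidase gene whose mammalian counterpart prefers purine nucleotides, rose by 0.44 (SE 0.12, limma adjusted p = 0.036). Its call held only without leflunomide array 1 among the 6 fits on 5 arrays, and ended with 75th percentiles aligned or array weights. uprt, listed here although it is named for uracil phosphoribosyltransferase, an enzyme that recycles the base, had -0.12, -0.41 and -0.67 on the leflunomide arrays, against 0.36, 0.24 and 0.12 on the DMSO arrays. uprt fell by 0.64 (SE 0.15, limma adjusted p = 0.0267), and its call ended without leflunomide array 2 and without each DMSO array.

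Among genes of precursor supply, 3 of 7 tested fell and 0 rose in limma, with 3 lower and 2 higher at an unadjusted p under 0.05. The 3 that fell were the aspartate aminotransferase genes on the list, and their enzymes interconvert aspartate, a building block of the pyrimidine ring, and oxaloacetate. got2b of the mitochondrial form had -0.18, -0.44 and -0.49 on the leflunomide arrays, against 0.30, 0.18 and 0.20 on the DMSO arrays, and fell by 0.59 (SE 0.11, limma adjusted p = 0.0125). got2a fell by 0.57 (SE 0.15, limma adjusted p = 0.0387) and got1 of the cytosolic form by 0.46 (SE 0.10, limma adjusted p = 0.0181). Leaving out single arrays ended the call of got2b in 1 of 6 fits (DMSO array 1), of got1 in 4 (leflunomide array 2 and each DMSO array) and of got2a in 5 (all but leflunomide array 1). glulb, a glutamine synthetase gene named after its values were seen, had 0.03 at the probe set that stands for it and -0.72 at the other (limma adjusted p = 0.0218), so its probe sets disagreed.

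The only other nucleoside carrier tested was slc29a2, of the equilibrative type, with a difference of 0.05 (95% confidence interval -0.23 to 0.34, limma adjusted p = 0.8); its sign turned with 75th percentiles aligned. Genes that consume UDP sugars or CDP intermediates, 13 tested, had 1 higher and 0 lower in limma, with 3 higher and 0 lower at an unadjusted p under 0.05. The 1 that rose was has2, which encodes a hyaluronan synthase that uses UDP sugars, with 0.16, 0.86 and 1.29 on the leflunomide arrays, against -0.16, -0.27 and -0.27 on the DMSO arrays. has2 rose by 1.01 (SE 0.25, limma adjusted p = 0.0308), and leflunomide array 1 lay much nearer to the DMSO arrays than the others did. Its call ended without leflunomide array 2 and without each DMSO array.

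**Figure D4:**
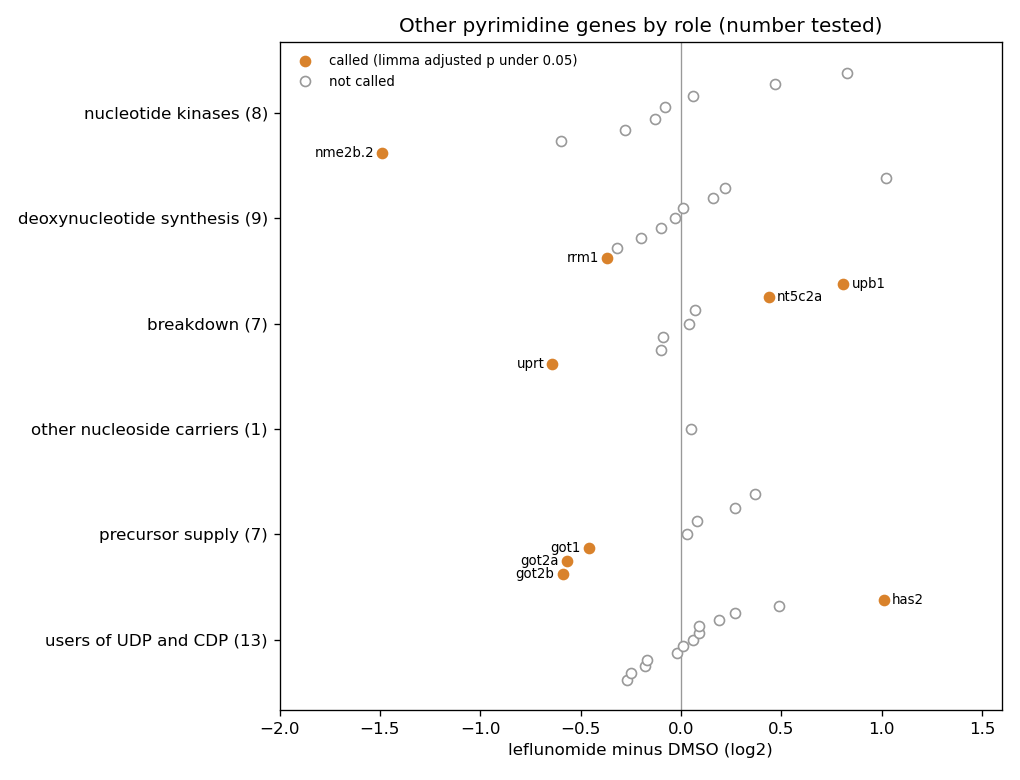
Leflunomide minus DMSO difference on the log2 scale (horizontal axis) of the 45 other tested genes, arranged by role with the number tested; points are spread vertically by size only. Filled points are the 9 called genes, 6 of them lower and 3 higher, and the aspartate aminotransferase genes got1, got2a and got2b lie together between -0.59 and -0.46.

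Much else differed between the groups. Markers of fast muscle fell in 8 of 8 tested genes (median log2 change of the list against the DMSO mean -3.36, -5.02 and -4.75 on leflunomide arrays 1 to 3), of red cells in 6 of 6 (-2.54, -3.90 and -3.53), of neural crest in 4 of 4 (-1.68, -1.98 and -1.88), of neurons in 5 of 6 (-0.60, -1.52 and -1.44) and of replication in 5 of 7 (-0.81, -1.21 and -1.56). Each marker gene was counted by 1 probe set. The fast muscle gene actc1b had -1.45 at the probe set counted. Its other tested probe sets had -1.36 and 0.62 (limma adjusted p = 0.00599 and 0.166), so they disagreed. Of 3 epidermal genes, 0 were called in limma and 1 had an unadjusted p under 0.05. Control probe sets are centred too, so a 3' minus 5' difference compares arrays only, and its sign shows no excess of either end. The 3' minus 5' difference of the endogenous acta1 control was 0.48, 0.64 and 0.63 on leflunomide arrays 1 to 3, against -0.48, -0.62 and -0.87 on the DMSO arrays, so the groups lay apart. That of the GAPDH control was -0.11, -0.76 and -0.91 on the leflunomide arrays, against 0.18, 0.11 and -0.09 on the DMSO arrays, apart in the opposite direction. Whether either gap reflects RNA quality was not tested. The spike-in control for dap had a 3' minus 5' difference of 2.00 on leflunomide array 3, against -0.14 and -0.71 on arrays 1 and 2 and at most 0.18 in DMSO. The differences of the lys and phe spike-ins were also highest on leflunomide array 3, at 0.54 and 0.75. The part of these cell type shifts and of array quality in the pyrimidine gene differences was not tested, beyond the fits without single arrays.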

How the data were processed

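Total RNA of 6 samples was measured on Affymetrix zebrafish arrays. The authors summarised the deposited log2 values with GCRMA, per the submitters' processing notes (version not given in the sources used here). Each probe set is centred on its own median, which is 0 to within 5e-07, a step that no source used here states. Base 2 is assumed because GCRMA works on that scale. Groups and replicate numbers came from the titles.

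Single-precision values carry a step that doubles at log2 levels of 4 and 8, and 100.0% of probe sets fell on the steps of levels of 2 or more (values under 0.001 not read, tolerance 0.01 of a step). The median was placed by the values above it, which can set a median 1 band or more too high. How many medians were set too high was not counted, so some tested probe sets may have a median under 4. The median was placed at 2 to 4 for 2395 probe sets, 4 to 8 for 8153 and 8 to 16 for 4954. Without 115 controls, 13107 probe sets at 4 or more were tested with lmFit and eBayes (limma 3.58.1, R 4.3.3), two-sided, with Benjamini-Hochberg adjustment. The platform annotation named 1 gene for 10795 probe sets. Where a gene of a list had several, that with the highest level, most specific suffix and lowest ID was used. Members and lists were chosen with earlier results of these data known. Named genes were all members, every called listed gene (or that of highest level in a list with none called), and the 3 nearest patterns to uck2b and dhodh; exceptions are marked. No sequences or coordinates were used. In simulated data with 13107 probe sets, of which 50 changed at each size, the recovery was 18% for a log2 change of 0.5. It was 72% for 1 and 100% for 2, with 7 false calls. Far fewer probe sets changed there than the 20.3% called here, and the adjustment depends on that share. The recovery therefore does not give that of the present comparison. The number of arrays limits the precision. Alternatives covered the level filter, scaling, variance model, array weights, replicate block, threshold, probe set choice and each array left out.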

Additional observations from a re-analysis of the deposited data

How the results depend on the processing

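uck2b, uck2a and uckl1b kept direction and call in every alternative that tested them. For uck2a, all of these but the fit without the level filter rest on a filter that it passed only through its DMSO arrays. cad and dhodh kept their direction in all, and their calls except without single arrays, as given above, or at an adjusted p under 0.01. At that threshold, 0 of the 8 tested probe sets of the pathway were higher in limma (4 at an unadjusted p under 0.05, that of umps among them). Leaving out 1 array in turn gave 0 to 4 higher and 3 lower probe sets of the pathway; the 0 came without DMSO array 1 (3 at an unadjusted p under 0.05). Over all tested probe sets such fits gave 426 to 1400 higher and 731 to 1474 lower, against 1258 and 1401 with all arrays. For the other listed genes they gave 0 to 5 higher and 0 to 6 lower. With a median level of at least 8, 786 probe sets were higher and 684 lower. Of the 26 listed genes in that fit, 7 were higher and 4 lower, against 3 and 6 of 45 in the main fit. Of the salvage kinases 1, uckl1b, was lower, since uck2a and uck2b are left out by construction. In that band the rounding places the leflunomide arrays of uckl1b between 7.45 and 8.12 and its DMSO arrays between 8.3 and 8.91. uckl1b thus passed this stricter filter mainly through its DMSO arrays. At an adjusted p under 0.01, 296 probe sets were higher and 588 lower, and of the listed genes 0 were higher and 0 lower in limma (10 and 8 at an unadjusted p under 0.05). slc29a2 turned to -0.00 with 75th percentiles aligned and ran from -0.03 (without DMSO array 2) to 0.13 (without leflunomide array 2) with 1 array left out; the cause was not tested. A filter that dropped any probe set with an array under level 4 was chosen after seeing the data.

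The labels do not say that a replicate number marks a shared clutch or batch. The main fit did not pair the arrays for that reason. Deviations from the group means correlated by 0.33, 0.188 and 0.075 for numbers 1 to 3, and each array correlated best with its own number. A shared clutch or batch is therefore possible, and its presence was not tested. With the replicate number as a block, 6 listed genes were higher and 4 lower. The calls of rrm1, nt5c2a and got2a ended, and those of the 8 tested probe sets of the pathway did not change.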
